A study of Mus musculus with 8 samples.

Results

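The genes described here are the core of IL-2 and IL-15 receptor signalling, 10 genes taken by symbol from the count tables of NK cell libraries. They are the receptor chains *Il2rb*, *Il2rg* and *Il2ra*, the kinases *Jak1* and *Jak3*, the transcription factors *Stat5a* and *Stat5b*, and the feedback genes *Cish*, *Socs1* and *Socs2*. They make up 10 of the 48321 gene symbols counted and 10 of the 12595 genes left by the filter on low counts, which all of them passed.

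IL-2 and IL-15 signal through a shared pair of receptor chains, the β chain (IL2RB) and the common γ chain (IL2RG), and the α chain of the IL-2 receptor (IL2RA, CD25) raises the affinity for IL-2. JAK1 is bound to the β chain and JAK3 to the γ chain, and together they phosphorylate STAT5A and STAT5B, which enter the nucleus and switch on target genes. CISH, SOCS1 and SOCS2 belong to the SOCS family, whose genes are induced by cytokine signalling and whose proteins damp it. NK cells depend on IL-15 for their development and survival.

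NK cells were sorted from lung and spleen of C57/Bl6 mice as CD45+ TCRb- NK1.1+ cells, and their RNA was sequenced to ask which transcripts change when the *Ccl5* proximal enhancer, *Ccl5-PE*, is missing. The 4 groups were lung *Wt*, lung KO, spleen *Wt* and spleen KO, with 2 libraries each. KO stands for *Ccl5*ΔPE/ΔPE mice, in which the enhancer was deleted from the germline, so that every cell of the animal lacked it and not only NK cells. No agent was given. The study's methods describe its mice as a whole as of mixed sexes and from juvenile to young adult in age, but give no age, sex or number of mice for a library. Whether replicate libraries were made from different animals was not stated, so the p-values below measure only the spread between these libraries, which may be technical.

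Between 3132963 and 26482366 reads per library were counted on genes, and the deepest library was replicate 2 of spleen KO. The targeted gene fitted the labels, since *Ccl5* lay between 15663.8 and 19517.7 CPM (read counts scaled to library size, with TMM factors) in the 4 *Wt* libraries and between 2432.3 and 3195.0 CPM in the 4 KO libraries. The organ labels were met by the lung epithelial genes *Sftpc* and *Scgb1a1*, which had no reads in spleen. All 9 NK cell markers examined were detected in every group, whereas the T cell genes *Cd4*, *Cd8a*, *Cd8b1* and *Cd5* stayed at or below 2.25 CPM. All 10 T cell markers summed to between 415.3 and 434.5 CPM (*Wt*) and between 325.9 and 345.3 CPM (KO) in lung, and to between 549.2 and 561.0 CPM (*Wt*) and between 600.3 and 633.6 CPM (KO) in spleen, with *Trbc1*, a constant region of the T cell receptor β chain, at 202.0 to 339.2 CPM. The summed NK cell markers ran from 51215.1 to 52717.5 CPM (*Wt*) and from 40505.5 to 40902.4 CPM (KO) in lung, and from 36964.8 to 37527.0 CPM (*Wt*) and from 48168.8 to 50519.2 CPM (KO) in spleen. Most of this sum was *Gzma* and *Nkg7*. Most of the T cell sum was *Trbc1* and *Trbc2*, and single T cell genes differed in direction in spleen. *Cd3e* was lower there with the deletion, at 32 and 32.5 CPM (*Wt*) and 7.51 and 11.1 CPM (KO). *Cd3g* was slightly lower, at 61.4 and 60.9 CPM (*Wt*) and 57.5 and 55.3 CPM (KO). *Trac* was higher, at 19 and 21.3 CPM (*Wt*) and 30 and 27.5 CPM (KO). As sums, both marker lists were lower with the deletion in lung and higher with it in spleen. Among the NK cell markers, the transcription factor *Tbx21* and the perforin gene *Prf1* ran the other way. *Tbx21* had 216.1 and 221.5 CPM (*Wt*) and 477.9 and 480.1 CPM (KO) in lung. In spleen *Tbx21* had 341.5 and 331.1 CPM (*Wt*) and 149.8 and 147.5 CPM (KO). *Prf1* had 1463.0 and 1555.8 CPM (*Wt*) and 2476.7 and 2553.7 CPM (KO) in lung. In spleen *Prf1* had 1302.9 and 1320.0 CPM (*Wt*) and 938.9 and 937.7 CPM (KO). *Eomes* had 194.8 to 224.9 CPM over all libraries. The part of these markers in the results below was not tested. In such bulk samples, fewer cells of a type and less RNA per cell cannot be told apart.

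The sequences below show a STAT5-type motif in the promoter of the only gene, of the 8 searched, that holds it. They also show the stretch that makes reads of the STAT5 genes hard to tell apart. STAT5 binds the palindrome TTCNNNGAA, which reads the same on both strands. Promoter windows running from 250 bases before to 50 bases after the transcript start were taken from RefSeq for 8 of the 10 genes (*Il2rg*, *Il2ra*, *Jak1*, *Jak3*, *Stat5a*, *Stat5b*, *Cish* and *Socs1*). *Cish* alone among these 8 genes held the motif, which was found for 9.55% of all 27025 genes and in 8.30% of all 32851 windows of this length. The *Cish* window had 2 copies, both in the first bases of the RefSeq transcript. The GENCODE M21 gene begins before this start, at chr9:107296026, so the bases shown lie inside it. The 80 bases shown lie at chr9:107296599-107296678 on the plus strand of GRCm38.p6, 60 before the start and 20 after it, with the motif copies in capitals.
Cish promoter: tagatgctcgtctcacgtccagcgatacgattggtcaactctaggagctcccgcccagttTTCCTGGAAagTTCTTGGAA
A motif match is a description of the letters and does not show binding.

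Gene positions are those of GENCODE M21 (GRCm38). *Stat5a* (chr11:100859351-100885169, plus strand) and *Stat5b* (chr11:100780731-100850724, minus strand) are neighbours on mouse chromosome 11 in GRCm38, and their coding sequences share an exact run of 324 bases, coding bases 571 to 894 in both. Its first 120 bases, which lie in exons 6 and 7 of both genes with an intron between (chr11:100874023-100874347 for *Stat5a* and chr11:100798377-100798701 for *Stat5b*), are shown, since a 50-base read from this run fits either gene equally well.
Stat5a and Stat5b: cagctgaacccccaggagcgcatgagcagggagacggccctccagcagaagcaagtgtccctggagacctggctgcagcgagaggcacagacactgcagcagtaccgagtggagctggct
Over all annotated transcripts, 10.8% of the 50-base words of *Stat5a* occur in *Stat5b*, and 11.8% of those of *Stat5b* occur in *Stat5a*. *Il2rg* shares 42% of its words with the read-through gene *Gm20489*, which had 0 reads in all 8 libraries. *Il2rg* and *Gm20489* lie at the same place and share 728 exonic bases on the same strand. *Jak3* shares 7.55% of its exonic bases with another gene on the same strand. *Cish* shares 13.2% of its words with 514 other genes, and *Socs2* 7.23% with 2. How reads with several matching places, or on exons shared with another gene, were counted was not stated. The values of these genes carry this uncertainty.

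Per kilobase of exon the 10 genes fell into levels far apart. The common γ chain *Il2rg* was the most abundant, with group means from 762.8 to 1082.3 CPM per kilobase. *Jak1* followed with 242.3 to 293.9 and the β chain *Il2rb* with 78.4 to 180.3 CPM per kilobase. *Stat5b*, with group means from 6.55 to 8.83 CPM per kilobase, lay above *Stat5a*, with 1.87 to 2.93. *Jak3* (1.12 to 2.36 CPM per kilobase), *Socs2* (0.979 to 1.47), *Il2ra* (0.599 to 1.58) and *Cish* (0.383 to 1.17) were low throughout. *Socs1* had the widest range as a ratio, from 2.14 CPM per kilobase in lung *Wt* to 10.3 in spleen *Wt*. Exon lengths are those of GENCODE M21 and not of the annotation used for counting, which was not stated, so these levels are approximate.

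The β and γ chains each differed between genotypes in opposite directions in the 2 organs. *Il2rb*, on chromosome 15 (chr15:78479256-78495271, minus strand), had 327.3 and 345.1 CPM in the lung *Wt* libraries and 759.4 and 786.2 CPM in those of KO mice. The spleen libraries held 675.7 and 675.9 CPM for *Wt* and 442.3 and 444.0 CPM for KO. The 4 groups did not overlap, and from low to high they ran lung *Wt*, spleen KO, spleen *Wt* and lung KO. *Il2rb* was 2.31-fold higher in KO than in *Wt* lung (log2 fold change 1.21, SE 0.041, adjusted p = 5.2e-24, edgeR's quasi-likelihood test) and 1.52-fold lower in KO than in *Wt* spleen (-0.61, SE 0.039, adjusted p = 1.3e-15). The study itself singled out *Il2rb* from these lung libraries, so its lung difference is no independent evidence.

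*Il2rg* (chrX:101264378-101268255, minus strand) moved the other way. Its lung libraries stood at 2584.4 and 2582.7 CPM for *Wt* and at 1925.9 and 1918.7 CPM for KO, and its spleen libraries at 1853.7 and 1787.7 CPM for *Wt* and at 2380.5 and 2320.3 CPM for KO. No group overlapped another, and from low to high they ran spleen *Wt*, lung KO, spleen KO and lung *Wt*. The γ chain was 1.34-fold lower in KO lung (log2 fold change -0.43, SE 0.034, adjusted p = 3.7e-13) and 1.29-fold higher in KO spleen (0.37, SE 0.034, adjusted p = 1.9e-11). The γ chain is also part of the receptors for IL-4, IL-7, IL-9 and IL-21.

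*Il2ra* (chr2:11642807-11693193, plus strand) was detected at a low level, with 11 to 85 reads per library. In lung it had 7.21 and 5.96 CPM (*Wt*) and 4.91 and 5.03 CPM (KO), and in spleen 10.5 and 7.59 CPM (*Wt*) and 3.59 and 3.26 CPM (KO). No group overlapped another, with spleen KO the lowest and spleen *Wt* the highest. It fell in KO spleen by 1.38 on the log2 scale (SE 0.214, adjusted p = 1.1e-06). In lung the KO libraries lay below the *Wt* libraries as well, but the difference did not pass the test (-0.44, 95% interval -0.93 to 0.04, adjusted p = 0.13). CD25 also marks regulatory T cells and group 2 innate lymphoid cells. The sort gate removes T cells carrying TCRb and all cells without NK1.1. The regulatory T cell gene *Foxp3* had 6.46 and 5.18 CPM (*Wt*) and 5.73 and 6.12 CPM (KO) in lung, and 4.75 and 4.56 CPM (*Wt*) and 1.96 and 2.95 CPM (KO) in spleen. *Foxp3* was thus lower in the spleen KO libraries, as *Il2ra* was. *Ctla4* went the other way, with no reads in the 4 *Wt* libraries, 2.87 and 3.13 CPM in KO lung and 1.63 and 1.38 CPM in KO spleen. *Ccr4* had no reads in any library, and the 4 regulatory T cell markers summed to between 26.1 and 28.8 CPM (*Wt*) and between 19.9 and 21.6 CPM (KO) in lung, and to between 20.4 and 24 CPM (*Wt*) and between 18 and 18.7 CPM (KO) in spleen. Most of this sum was *Ikzf2*, with 19.6 and 23.6 CPM (*Wt*) and 11.3 and 12.4 CPM (KO) in lung. In spleen *Ikzf2* had 19.2 and 15.9 CPM (*Wt*) and 14.4 CPM in both KO libraries. Of 6 markers of group 2 innate lymphoid cells, *Il5* and *Il13* had no reads in any library, *Areg* had 3 reads in a single library, and the sum of 1046.6 to 1390.1 CPM came almost wholly from *Gata3* and *Klrg1*, which NK cells express too. The part of these cells in the *Il2ra* difference was not tested.

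**Figure D1:**
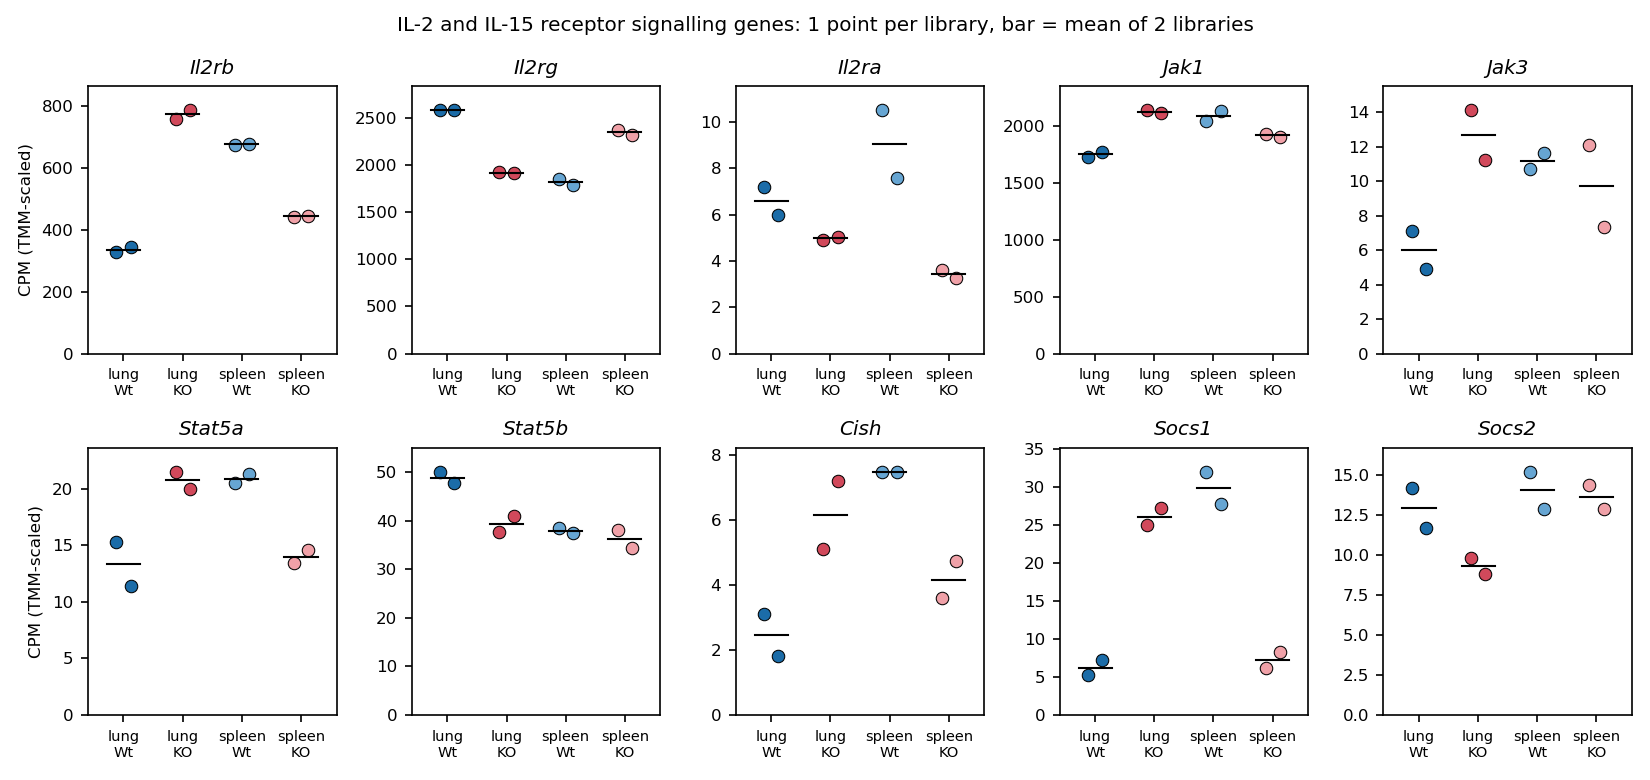
CPM (TMM-scaled, linear axes from 0) of the 10 genes in each of the 8 libraries, with 1 point per library and a bar at the mean of the 2 libraries of a group. For *Il2rb*, *Stat5a*, *Cish* and *Socs1* the lung KO and spleen *Wt* points lie high and the lung *Wt* and spleen KO points low, and for *Il2rg* this is turned round.

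Of the kinases, *Jak1* moved in the directions of the β chain. *Jak1* (chr4:101152367-101265282, minus strand) had 1729.1 and 1772.7 CPM (*Wt*) and 2135.7 and 2112.7 CPM (KO) in lung, and 2042.1 and 2126.0 CPM (*Wt*) and 1931.9 and 1900.8 CPM (KO) in spleen. Lung KO and spleen *Wt* overlapped, and lung *Wt* was the lowest group. The changes were small, 1.21-fold higher in KO lung (log2 fold change 0.28, SE 0.035, adjusted p = 1.4e-08) and 1.09-fold lower in KO spleen (-0.12, SE 0.034, adjusted p = 0.0024, and 0.07 without replicate 2 of spleen *Wt*).

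*Jak3* (chr8:71676296-71690575, plus strand) had 7.09 and 4.92 CPM in lung *Wt* and 14.1 and 11.2 in lung KO, so that the groups did not overlap. It was 1.94-fold higher in KO lung (log2 fold change 0.96, SE 0.219, adjusted p = 0.00032), and with the GC trend removed the value was 0.51 (adjusted p = 0.05, just under the threshold). In spleen the *Wt* libraries, at 10.7 and 11.6 CPM, lay between the KO libraries, at 12.1 and 7.35. The fitted spleen difference of -0.50 (SE 0.182, adjusted p = 0.019) rested on the deepest library, spleen KO replicate 2. Without it the value was 0.10 (adjusted p = 0.82), so no direction can be given for *Jak3* in spleen.

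The STAT5 genes differed from each other. *Stat5a* in lung had 15.3 and 11.4 CPM (*Wt*) and 21.5 and 20 CPM (KO), and in spleen 20.5 and 21.3 CPM (*Wt*) and 13.4 and 14.6 CPM (KO). Lung KO and spleen *Wt* overlapped, as did lung *Wt* and spleen KO, and the genotypes were apart within each organ. *Stat5a* was 1.47-fold higher in KO lung (log2 fold change 0.56, SE 0.145, adjusted p = 0.0013) and 1.46-fold lower in KO spleen (-0.54, SE 0.122, adjusted p = 0.00025). Neither call held once the GC trend was removed, at 0.19 (adjusted p = 0.27) in lung and -0.25 (adjusted p = 0.073) in spleen. Without replicate 1 of lung *Wt* the lung value was 0.85 (adjusted p = 0.0011). *Stat5b* had 50.1 and 47.7 CPM (*Wt*) and 37.7 and 41 CPM (KO) in lung, and 38.5 and 37.4 CPM (*Wt*) and 38.2 and 34.4 CPM (KO) in spleen. Lung *Wt* was the highest group and the others overlapped. It was 1.24-fold lower in KO lung (-0.32, SE 0.092, adjusted p = 0.004, but 0.078 with DESeq2 and 0.085 without replicate 1 of lung *Wt*). With the GC trend removed the lung value was -0.52 (adjusted p = 6.6e-06). The spleen value of -0.11 did not pass the test (95% interval -0.28 to 0.06, adjusted p = 0.29).

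Among the feedback genes, *Socs1* changed most. *Socs1* (chr16:10782240-10785536, minus strand), whose product binds and inhibits JAK kinases, had 5.22 and 7.25 CPM (*Wt*) and 25 and 27.2 CPM (KO) in lung. In spleen it had 32 and 27.8 CPM (*Wt*) and 6.2 and 8.35 CPM (KO). Low and high groups were far apart, whereas lung *Wt* and spleen KO overlapped. It was 4.45-fold higher in KO lung (log2 fold change 2.15, SE 0.173, adjusted p = 4.1e-13) and 3.61-fold lower in KO spleen (-1.85, SE 0.130, adjusted p = 1.4e-14).

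*Cish* (chr9:107296026-107302784, plus strand), the gene with the motif copies shown above and a classical STAT5 target, rested on few reads. The lung libraries had 25 and 7 reads for *Wt* (3.11 and 1.81 CPM) and 25 and 53 reads for KO (5.12 and 7.21 CPM). The spleen libraries had 30 and 64 reads for *Wt* (7.49 and 7.48 CPM) and 11 and 124 reads for KO (3.59 and 4.75 CPM). Within each organ the genotypes did not overlap. *Cish* was 2.36-fold higher in KO lung (log2 fold change 1.24, SE 0.295, adjusted p = 0.0005, but 0.93 with adjusted p = 0.051 without replicate 2 of lung KO). It was 1.63-fold lower in KO spleen (-0.70, SE 0.212, adjusted p = 0.0049, but 0.13 with DESeq2 and 0.072 without replicate 2 of spleen *Wt*). Without replicate 2 of spleen KO the spleen value was -1.06 (adjusted p = 0.043). The antisense gene *Gm17041*, which shares 8.3% of the 50-base words of *Cish*, had 1 to 29 reads, and reads of a gene and its antisense partner cannot be told apart here.

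*Socs2* (chr10:95385362-95417180, minus strand), known as a brake on growth hormone signalling, had 14.2 and 11.7 CPM (*Wt*) and 9.82 and 8.84 CPM (KO) in lung, and 15.2 and 12.9 CPM (*Wt*) and 14.4 and 12.9 CPM (KO) in spleen. Lung KO was the lowest group and the others overlapped. The lung difference of -0.53 (SE 0.177, adjusted p = 0.011) did not hold with DESeq2 (adjusted p = 0.15), without replicate 1 of lung *Wt* (-0.34, adjusted p = 0.29) or without replicate 2 of lung KO (-0.44, adjusted p = 0.12). In spleen the value was -0.06 (95% interval -0.33 to 0.22, adjusted p = 0.75).

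**Figure D2:**
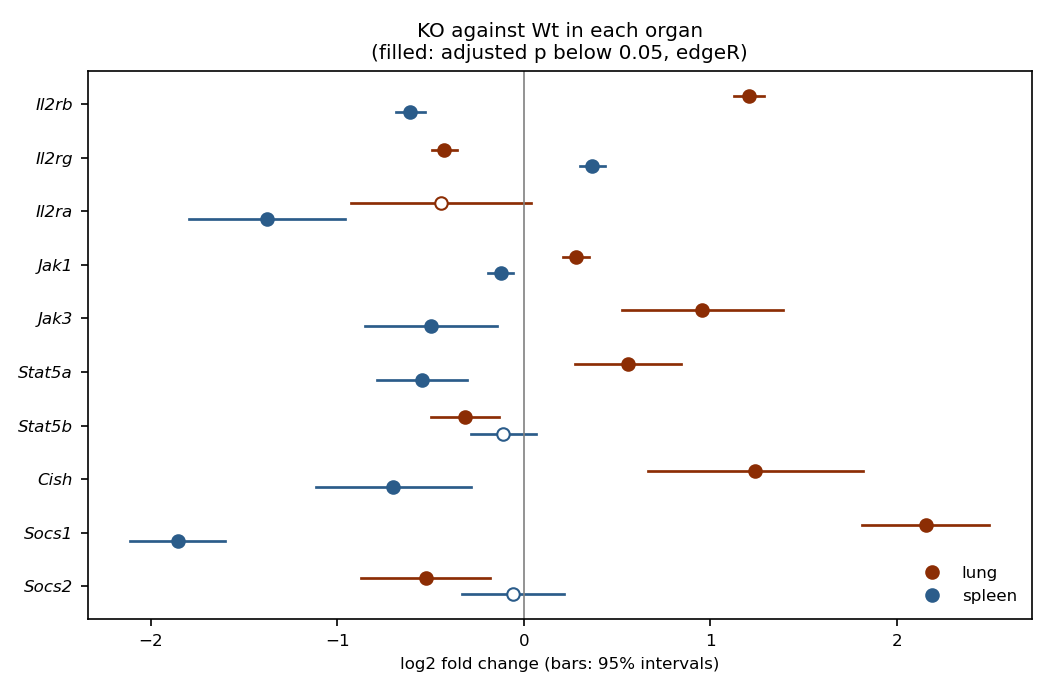
Log2 fold change of KO against *Wt* for the 10 genes in lung and spleen, with bars for 95% intervals and filled points for an adjusted p below 0.05 (edgeR's quasi-likelihood test). Points of the same gene lie on opposite sides of 0 in the 2 organs for *Il2rb*, *Il2rg*, *Jak1*, *Jak3*, *Stat5a*, *Cish* and *Socs1*, of which *Jak3* in spleen rests on a single library.

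Counted together, 6 of the 10 genes were higher and 3 lower in KO than in *Wt* lung. These shares stand against 29.2% of all 12595 genes called higher and 26.4% called lower, 55.6% in all. The median log2 fold change was 0.42 over the 10 genes and 0.02 over all genes. In KO spleen 1 gene was higher and 7 were lower, against 28.2% of all genes called higher and 28.9% called lower, 57.1% in all, with medians of -0.52 and 0.00. Of the spleen calls, *Jak3* and *Cish* did not hold with DESeq2, nor *Jak3* and *Stat5a* with the GC trend removed. For *Jak3* in spleen no direction can be given. Of the lung calls, *Stat5b* and *Socs2* did not hold with DESeq2, nor *Stat5a* with the GC trend removed. Well over 50% of all genes passed the test in either organ, so a call alone sets no gene of the pathway apart from the rest. The common biological coefficient of variation was 2.5%, and with an assumed coefficient of 0.2 only 4 of the 10 genes passed in lung (*Il2rb*, *Jak3*, *Cish* and *Socs1*) and 2 in spleen (*Il2ra* and *Socs1*). The share of all genes that passed at this coefficient was not counted, so these counts cannot be set against it.

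The difference between the KO effects of the organs was tested directly. It passed for 8 genes, 7 with the larger value in lung and 1, *Il2rg*, with the larger value in spleen, against 32.5% and 29.0% of all genes (61.6% in all). *Socs1* differed most, by 4.01 on the log2 scale (SE 0.215, adjusted p = 2e-18), followed by *Cish* with 1.94 (SE 0.363, adjusted p = 1.7e-05) and *Il2rb* with 1.82 (SE 0.057, adjusted p = 1.5e-25). *Jak3* differed by 1.46 (adjusted p = 3.4e-05), *Stat5a* by 1.10 (adjusted p = 4.2e-06), *Jak1* by 0.40 (adjusted p = 4.9e-09) and *Il2rg* by -0.80 (adjusted p = 8e-17). With the GC trend removed the difference was 0.66 for *Jak3* (adjusted p = 0.046) and 0.45 for *Stat5a* (adjusted p = 0.04), and without replicate 2 of spleen KO it was 0.86 for *Jak3* (adjusted p = 0.027). For *Il2ra* both effects were negative, and their difference of 0.93 (SE 0.328, adjusted p = 0.014) was lost with DESeq2 (adjusted p = 0.14) and without any of replicate 2 of lung KO (adjusted p = 0.059), replicate 1 of spleen *Wt* (0.052) or replicate 2 of spleen KO (0.18). For *Stat5b* the difference was -0.21 (95% interval -0.45 to 0.04, adjusted p = 0.16), and -0.55 (adjusted p = 0.00027) with the GC trend removed. For *Socs2* it was -0.47 (95% interval -0.91 to -0.03 before adjustment, adjusted p = 0.07).

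The organs were also compared within each genotype. Between *Wt* lung and *Wt* spleen, 6 genes were lower and 2 higher in lung (all genes: 29.3% lower, 27.7% higher and 57.0% in all), with a median of -0.46 against -0.01 over all genes. *Il2rb* was 2.02-fold (log2 fold change -1.01, SE 0.041, adjusted p = 4.9e-22) and *Socs1* 4.95-fold lower in *Wt* lung (-2.31, SE 0.169, adjusted p = 2.2e-14). *Il2rg* (0.51, adjusted p = 2.6e-15) and *Stat5b* (0.38, adjusted p = 0.00061) were higher in *Wt* lung. *Jak1* (-0.25), *Jak3* (-0.83), *Stat5a* (-0.59) and *Cish* (-1.48) were lower there, with adjusted p-values of at most 0.0018. *Il2ra* (-0.34, adjusted p = 0.19) and *Socs2* (-0.04, adjusted p = 0.9) did not pass.

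Between KO lung and KO spleen, 6 genes were higher and 2 lower in lung (all genes: 33.9% higher, 31.7% lower and 65.6% in all), with a median of 0.49 against 0.02 over all genes. *Il2rb* was 1.74-fold (0.80, SE 0.039, adjusted p = 4.5e-20) and *Socs1* 3.25-fold higher in KO lung (1.70, SE 0.133, adjusted p = 7.7e-14). *Il2rg* (-0.29, adjusted p = 2.4e-09) and *Socs2* (-0.50, adjusted p = 0.0047, but 0.1 with DESeq2 and 0.1 without replicate 2 of lung KO) were lower there. *Jak1* was 1.11-fold higher (0.15, adjusted p = 0.00025). The calls for *Jak3* (0.63, adjusted p = 0.0023) and *Stat5a* (0.52, adjusted p = 0.00039) did not hold with the GC trend removed, at 0.08 (adjusted p = 0.7) and 0.07 (adjusted p = 0.62), and *Jak3* fell to 0.04 (adjusted p = 0.92) without replicate 2 of spleen KO. *Il2ra* (0.59, adjusted p = 0.033) did not hold with DESeq2 (adjusted p = 0.25) or without replicate 1 of lung KO (0.07), replicate 2 of lung KO (0.17) or replicate 2 of spleen KO (0.4). *Cish* (0.47, adjusted p = 0.063) and *Stat5b* (0.18, adjusted p = 0.071) did not pass. All these comparisons share groups with the KO comparisons of each organ, so their agreement adds no evidence.

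**Figure D3:**
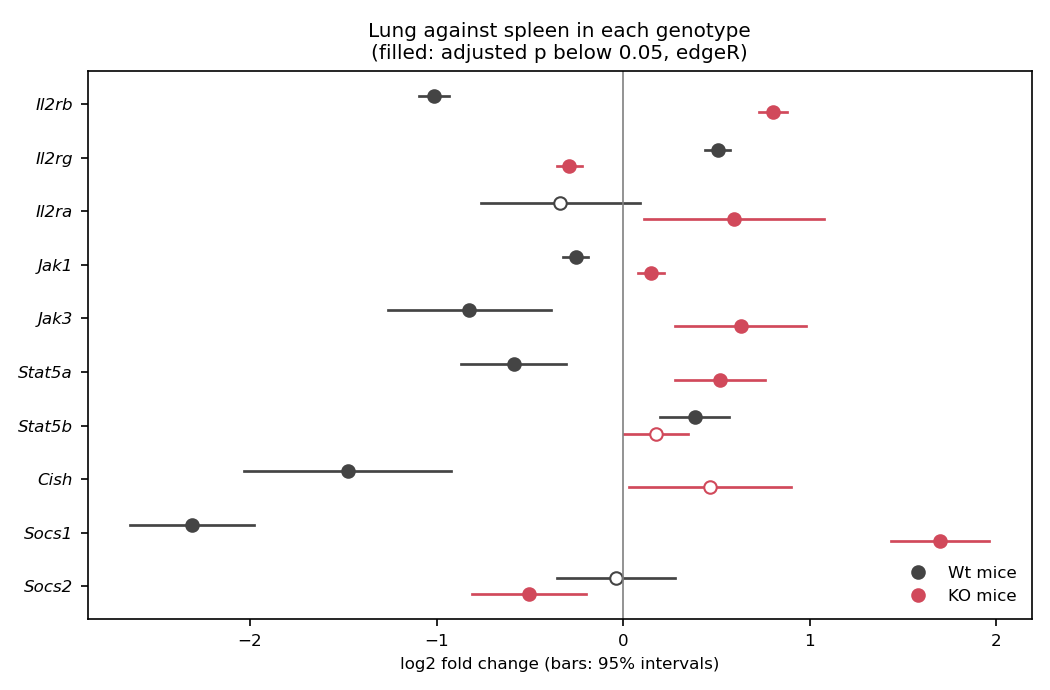
Log2 fold change of lung against spleen for the 10 genes in *Wt* and in KO mice, with bars for 95% intervals and filled points for an adjusted p below 0.05 (edgeR's quasi-likelihood test). *Il2rb* and *Socs1* lie below 0 in *Wt* mice (-1.01 and -2.31) and above 0 in KO mice (0.80 and 1.70), and *Il2rg* the other way round.

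By mean log2 CPM, the group nearest to lung *Wt* was spleen KO for 8 of the 10 genes, all but *Il2ra* and *Stat5b*. The group nearest to lung KO was spleen *Wt* for 8, all but *Il2ra* and *Socs2*. Over all 12595 genes the shares were 35.7% and 45.9%. These counts are a description without a test. *Ccl5* and the lung epithelial genes kept the pattern of their labels in the same libraries, as given above.

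The differences ran along the GC content of genes. Over 12502 genes, Spearman's rho between the KO effect and GC content was 0.290 in lung and -0.272 in spleen, across genes that share the same libraries. Among the 10 genes, *Jak3* (61% GC), *Socs1* (58.8%) and *Stat5a* (57.9%) were the richest in GC, and *Il2ra* (44.4%), *Socs2* (45.4%), *Jak1* (47.6%) and *Il2rg* (49%) the poorest. *Il2rb* (53.9%), *Cish* (53.1%) and *Stat5b* (52.7%) lay between. Removing each library's GC trend brought *Jak3*, *Socs1*, *Stat5a*, *Il2rb*, *Cish* and *Jak1* closer to 0 in both organs. *Il2rb* went from 1.21 to 0.96 in lung and from -0.61 to -0.43 in spleen. The offset left 8 of the 10 genes called in lung and 6 in spleen. The share of all genes called with the trend removed was not counted. *Il2rb* (0.96 in lung and -0.43 in spleen), *Socs1* (1.76 and -1.54), *Cish* (1.02 and -0.55), *Il2rg* (-0.50 and 0.40) and *Jak1* (0.26 and -0.12) were called in both organs with this offset. The offset also removes any difference of the genes themselves that runs with GC content, and these cannot be told apart here.

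**Figure D4:**
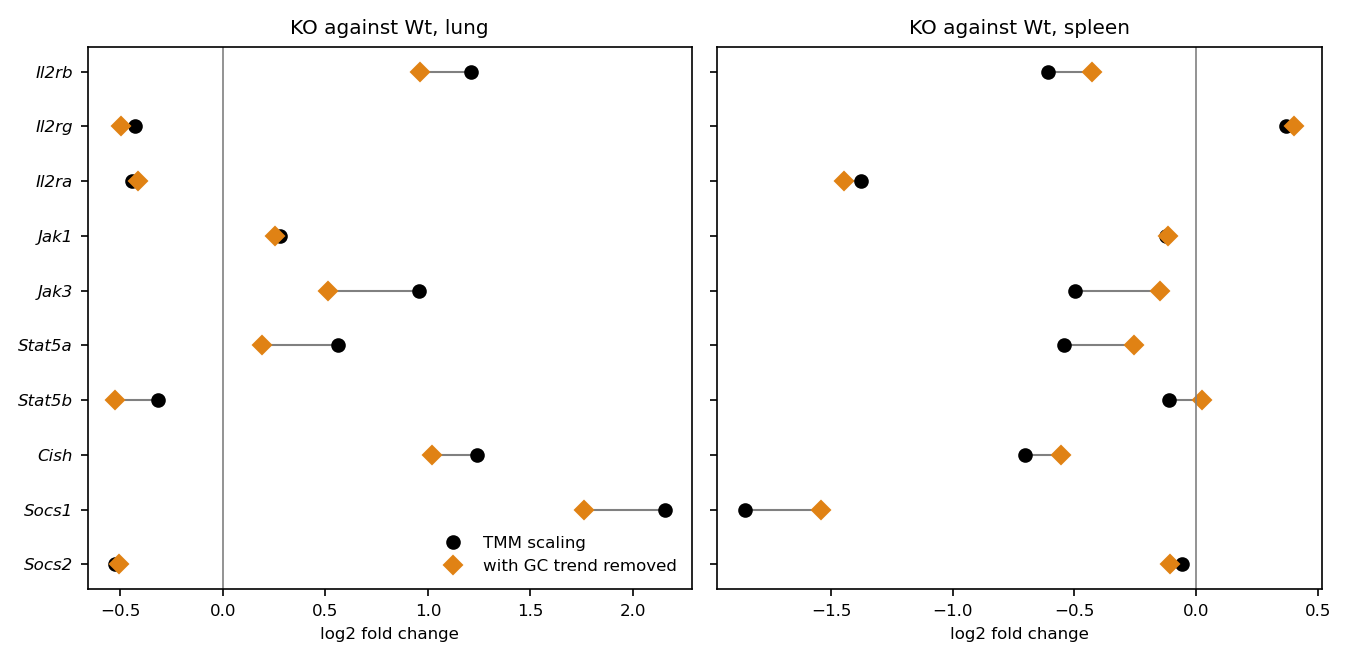
Log2 fold change of KO against *Wt* in lung and spleen (separate axes) with TMM scaling (circles) and with each library's GC trend removed (diamonds). *Jak3*, *Socs1* and *Stat5a* move towards 0 in lung, to 0.51, 1.76 and 0.19. *Il2rb*, *Cish* and *Jak1* do so too, to 0.96, 1.02 and 0.26. *Il2rg* moves away from 0, to -0.50 in lung and 0.40 in spleen.

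The rest of the pathway was read in lists of genes by role. The counts called in each list stand against the shares of all genes called. In KO lung these were 29.2% higher and 26.4% lower, 55.6% in all. In KO spleen they were 28.2% higher and 28.9% lower, 57.1% in all. A call by itself thus sets no gene of these lists apart. Of 12 other receptor chains and ligands, 11 were tested, since *Il9r* had too few reads. In lung 5 were higher and 1 lower in KO, with a median log2 fold change of 0.12, and in spleen 2 were higher and 7 lower, with a median of -0.21. *Il15ra*, the α chain that presents IL-15 to neighbouring cells, rose in KO lung from 8.7 and 9.58 to 18.6 and 18.1 CPM (1.02, SE 0.166, adjusted p = 2.3e-06). In spleen it had 13.7 and 16.4 CPM in *Wt* and 13.4 and 16.9 in KO, and did not pass the test (0.08, SE 0.130, adjusted p = 0.61). *Il7r*, the IL-7 receptor α chain that pairs with the γ chain, fell in KO in both organs, from 44.3 and 44.8 to 16.2 and 17.7 CPM in lung (-1.38, adjusted p = 3.3e-13) and from 90.2 and 94.9 to 70.2 and 71.5 CPM in spleen (-0.39, adjusted p = 2.4e-06). *Il7r* is among 6 markers of type 1 innate lymphoid cells, which pass the same sort gate, and the other 5 summed to between 67.1 and 71.2 CPM (*Wt*) and between 43.7 and 43.8 CPM (KO) in lung, and to between 71.7 and 83.9 CPM (*Wt*) and between 69.9 and 80.7 CPM (KO) in spleen. These sums were lower in KO lung and overlapped in spleen, and their part was not tested.

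The ligands were close to the limit of detection or did not pass the test in lung. *Il2* had 2 to 11 reads in 7 libraries and 89 in the deepest, replicate 2 of spleen KO. In spleen *Il2* had 2 and 1.29 CPM (*Wt*) and 2.29 and 3.41 CPM (KO), so that replicate 1 of both genotypes lay close together. The fitted difference was 1.10 in spleen (SE 0.338, adjusted p = 0.0056) and -0.83 in lung (adjusted p = 0.25). *Il15* had 9.8 to 18.9 CPM, with differences of -0.24 in lung (adjusted p = 0.26) and 0.30 in spleen (adjusted p = 0.054). The IL-12 receptor chain *Il12rb2* was higher in KO lung (0.48, adjusted p = 1.6e-11) and the IL-18 receptor chain *Il18r1* higher in KO spleen (0.47, adjusted p = 1e-08).

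Of the 7 other JAK and STAT genes, 4 were higher and 0 lower in KO lung, and 0 were higher and 5 lower in KO spleen, with medians of 0.17 and -0.36. *Stat6*, which acts below the IL-4 receptor, rose from 68.5 and 70.2 to 115.9 and 116.7 CPM in lung (0.75, adjusted p = 9.5e-12) and fell from 87.9 and 88.1 to 46.7 and 53.4 CPM in spleen (-0.75, adjusted p = 5.8e-12). *Stat2*, of the type I interferon pathway, fell in KO spleen from 27.7 and 28 to 9.14 and 9.77 CPM (-1.53, adjusted p = 1.4e-13).

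Of 18 other feedback genes, 8 were higher and 3 lower in KO lung and 4 higher and 8 lower in KO spleen, with medians of 0.22 and -0.18. The phosphatase gene *Ptpn1*, whose product acts on JAK kinases, rose in KO lung (0.60, adjusted p = 3.1e-10) and fell in KO spleen (-0.47, adjusted p = 1.3e-08). *Dusp5*, a phosphatase of ERK, rose in KO lung from 67.1 and 77.5 to 130.4 and 121.8 CPM (0.82, adjusted p = 1.4e-12). *Socs4* ran against *Socs1* in spleen, where it was higher in KO (0.61, adjusted p = 3.4e-08).

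Of 28 genes of the PI3K, mTOR and RAS arms, 13 were higher and 7 lower in KO lung and 5 higher and 12 lower in KO spleen, with medians of 0.12 and -0.20. *Rptor*, a subunit of mTOR complex 1, rose in KO lung from 10.3 and 9.84 to 21.9 and 21.4 CPM (1.09, adjusted p = 2.9e-07), while *Rheb*, the GTPase that activates this complex, fell (-0.31, adjusted p = 1.1e-07). In KO spleen the adaptor *Gab3* rose (0.60, adjusted p = 4.9e-13).

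Of 20 genes reported as STAT5 targets in lymphocytes, 18 were tested (*Lif* and *Lta* had too few reads), and 12 were higher and 3 lower in KO lung and 4 higher and 9 lower in KO spleen, with medians of 0.26 and -0.16. *Ccnd3*, a D-type cyclin, rose in KO lung from 165.6 and 171.5 to 329.5 and 334.1 CPM (0.98, adjusted p = 5.4e-19) and fell in KO spleen from 279.5 and 272.6 to 181.5 and 171.3 CPM (-0.66, adjusted p = 1.5e-14). *Prf1*, which encodes perforin, rose in KO lung (0.74, adjusted p = 2.2e-19) and fell in KO spleen (-0.48, adjusted p = 1.3e-13). The survival genes did not move together, since *Bcl2* rose in KO lung (0.33, adjusted p = 8.8e-08) and *Mcl1* fell there (-0.61, adjusted p = 4.8e-11). In spleen *Mcl1* rose (0.35, adjusted p = 3.8e-07) and *Bcl2* did not pass (-0.08, adjusted p = 0.12). *Myc* rose in KO lung (0.74, adjusted p = 3.1e-08) and had -0.17 in spleen (adjusted p = 0.061). *Pim1* passed in neither organ (0.17 in lung, adjusted p = 0.085, and -0.05 in spleen, adjusted p = 0.64). In 4 of the 5 lists genes were called in both directions in each organ, the JAK and STAT genes being the exception, and the shares called stand against those of all genes given above.

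**Figure D5:**
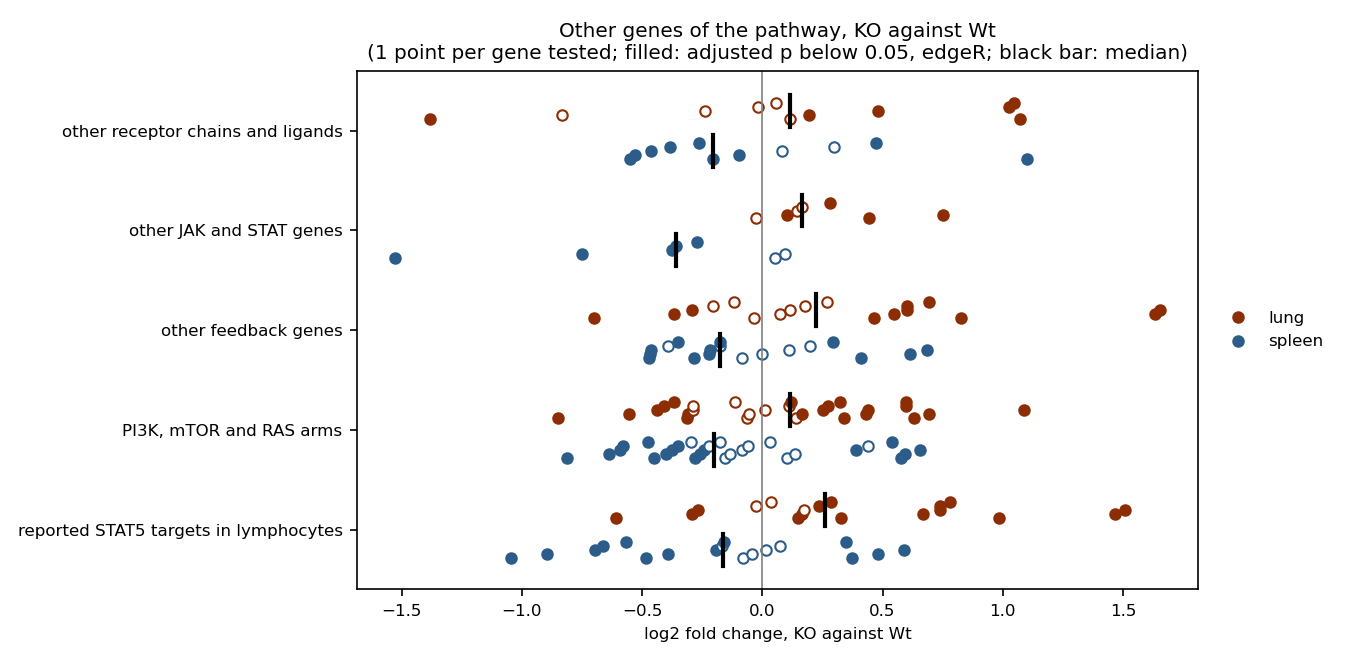
Log2 fold change of KO against *Wt* in lung and spleen for the tested genes of the 5 other pathway lists, with 1 point per gene, filled for an adjusted p below 0.05, and a black bar at each list's median. The medians lie between 0.12 and 0.26 in lung and between -0.36 and -0.16 in spleen, and in each list single genes lie on either side of 0.

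The genes whose 4 group means were most like those of *Il2rb* were sought among 5102 other genes with a mean log2 CPM above 5, each centred on its own mean. The nearest were *Mgat2* (root mean square difference 0.0594 on the log2 scale), *Hif1a* (0.0679), *Slc35a2* (0.0711), *Bcl2l13* (0.077) and *Ppp1r18* (0.0868). For *Cish*, among 5103 genes, they were *Irf7* (0.121), *Pim2* (0.13), *Slc25a39* (0.148), *Rsrp1* (0.156) and *Ppp1r18* (0.165). *Irf7* encodes an interferon regulatory factor and *Pim2*, one of the listed STAT5 targets, a survival kinase. The KO effects of *Cish* itself had SEs of 0.295 in lung and 0.212 in spleen, above all 5 of its distances. Which genes come nearest to *Cish* is therefore uncertain. With 4 groups of 2 libraries such likeness is a description.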

How the data were processed

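RNA of sorted NK cells was sequenced in 8 libraries of 50-base reads, 2 per combination of organ and genotype as the labels give them. The authors aligned reads to mm10 with HISAT2 2.1.0 and counted them on genes with HTSeq (0.11.1 in the submitters' processing notes), and deposited raw counts per gene symbol, without normalization. The annotation and the strand setting of the counting were not given in the sources used here. HTSeq's categories of uncounted reads were left out. Reads without a feature made up 52.7% to 55% of the counted, no-feature and ambiguous reads together. A floor of 3 counts corresponds to 0.115 to 0.979 CPM, which covers counting error only.

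The fit used edgeR 4.0.16 (R 4.3.3): filterByExpr over the 4 groups, TMM scaling, 1 mean per group over 8 libraries, the quasi-likelihood test for 5 contrasts, and Benjamini-Hochberg adjustment over 12595 genes at an FDR of 0.05. Standard errors came from the F statistic. Alternatives were RLE or library-total scaling, DESeq2 1.42.0, a minimum of 10 counts per library or no filter, only the libraries compared, a replicate block, an assumed biological coefficient of variation of 0.2, an FDR of 0.001, a GC offset (spline with 5 degrees of freedom) with and without the block, and leaving out each library. The GC content of GENCODE M21 (GRCm38) genes was known for 99.3% of genes tested, and promoters were those of RefSeq. The quasi-likelihood fit was tested on simulated counts.

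The members and lists were chosen with earlier results of these data known. Named are the 10 members, in each list the 2 genes with the smallest p per organ (some are not reported here), *Il15ra*, *Il15*, *Il2*, *Bcl2*, *Mcl1*, *Myc* and *Pim1* by role, and the 5 genes most like *Il2rb* and *Cish*. Marker genes, *Il9r*, *Lif*, *Lta*, *Gm20489* and *Gm17041* are named for what they bear on.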

Additional observations from a re-analysis of the deposited data

Results flagged for a closer look

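The KO effect differed between lung and spleen, by edgeR's quasi-likelihood test of the difference itself, for 8 of the 10 genes. On the log2 scale, as lung minus spleen, the difference was 4.01 for *Socs1*, 1.94 for *Cish*, 1.82 for *Il2rb*, 1.46 for *Jak3*, 1.10 for *Stat5a*, 0.93 for *Il2ra*, 0.40 for *Jak1* and -0.80 for *Il2rg*. For *Il2ra* both effects were negative (-0.44 in lung and -1.38 in spleen), and for the other 7 the fitted effects had opposite signs, although the spleen effect of *Jak3* was 0.10 (adjusted p = 0.82) without replicate 2 of spleen KO. The difference passed for 61.6% of all genes tested.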

How the results depend on the processing

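The number of the 10 genes called did not move by over 1.5 times with RLE or library-total scaling, a minimum of 10 counts per library or no filter, only the libraries compared (not run for the difference of the KO effects, which needs all 4 groups), or the GC offset. It was, once a biological variation of 0.2 was assumed, 4 in lung (KO against *Wt*), 2 in spleen, 4 for the difference of the KO effects, 3 between *Wt* organs and 2 between KO organs. At an FDR of 0.001 it was 5 in spleen and 5 between KO organs, and DESeq2 called 5 between KO organs. Leaving out a library gave 5 (without replicate 2 of spleen *Wt*) to 8 in spleen. In spleen, leaving out a library moved *Jak3* from -0.617 to 0.097, *Stat5b* from -0.137 to 0.016 and *Socs2* from -0.217 to 0.072, and between *Wt* organs *Socs2* from -0.212 to 0.062. The signs that turned under the GC offset were those of *Stat5b* in spleen (0.024, and 0.032 with the replicate block) and between KO organs (-0.019, and -0.029 with the block), and of *Jak3* between KO organs with the block (-0.016). The causes were not tested. The shares of all genes called were counted for the main setting only. Equal replicate numbers share only a number: over 5103 genes, deviations of equally numbered libraries correlated at -0.01 in lung, 0.17 in spleen, 0.00 between *Wt* organs and -0.08 between KO organs. The block left the counts called at 9, 8, 8, 8 and 8. Between KO organs it ended the call of *Il2ra* (0.52, adjusted p = 0.065) and brought *Cish* just under the threshold (0.50, adjusted p = 0.05), and it changed no other call. *Cish* rests on 7 to 124 and *Il2ra* on 11 to 85 reads per library.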
